A study of Mus musculus with 8 samples.

Results

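The 10 genes described here are the hormone receptors and lineage genes by which mammary epithelium is usually recognised, and the question was how much of that character the mouse mammary carcinoma line DA3 held beside a stromal line. They are the receptors Esr1, Pgr and Prlr, the luminal transcription factors Gata3, Foxa1 and Elf5, the milk proteins Csn2, Csn3 and Wap, and the basal transcription factor Trp63. A gene was measured through a probe set (a group of short probes on the array) whose platform annotation gave its symbol and no other, and 9 of the 10 genes had such a probe set, each exactly 1, among 19938 genes read in the same way. Prlr had none, so no value is given for it. Of the 9 genes, only Esr1 differed past the threshold between DA3, alone or co-cultured, and co-cultured MBA-15, and it was lower in DA3.

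RNA was hybridised to 8 mouse MoGene 1.0 ST arrays in 4 groups of 2, all at 24 h. MBA-15 is a pre-osteoblastic stromal line and DA3 a mammary adenocarcinoma line, both grown in medium with fetal calf serum. For co-culture, DA3 cells were laid on a monolayer of MBA-15, and the mixture was then parted with magnetic particles that bind EpCAM (CD326), a surface protein of epithelial cells. The EpCAM-bound fraction is the group co-cultured DA3 (DA3 co-culture in the plots), the unbound fraction is co-cultured MBA-15 (MBA-15 co-culture), and the groups MBA-15 alone and DA3 alone are mono-cultures per the labels. No hormone, gene alteration or drug was named for any group, and serum carries steroid and peptide hormones into all 4. Each line is a single established line, and the selection was on EpCAM, so the Epcam level of the co-culture fractions was set by the separation. The labels do not state whether duplicates are separate cultures, so p-values measure the spread between these arrays, which may be technical.

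As background, the mammary epithelium holds hormone-sensing luminal cells, which carry the oestrogen receptor, the progesterone receptor and the prolactin receptor, alveolar luminal cells, which make milk, and basal cells beneath them. Gata3 and Foxa1 act with the oestrogen receptor at the genes of luminal cells, Elf5 drives the alveolar fate downstream of prolactin, and prolactin signalling through Jak2 and Stat5 switches on casein and whey protein genes. Trp63 maintains the basal layer.

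Promoter sequences are shown for Esr1, the gene that differed between DA3 and co-cultured MBA-15, and for Csn2, a casein whose promoter is a textbook target of prolactin signalling. RefSeq (GRCm38.p6) gave windows of 300 bases around a transcription start for 7 of the 9 measured genes, 9 windows in all. The 250 bases before each start follow, 5′ to 3′ on the strand of the gene, with capitals for a match to the STAT motif.
Esr1, upstream start, chr10:4611739-4611988, plus strand: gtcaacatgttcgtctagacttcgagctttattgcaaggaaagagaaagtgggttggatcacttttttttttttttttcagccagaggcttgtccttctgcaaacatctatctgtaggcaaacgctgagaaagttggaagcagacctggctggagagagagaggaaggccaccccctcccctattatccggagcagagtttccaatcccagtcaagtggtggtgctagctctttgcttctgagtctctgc
Esr1, downstream start, chr10:4709908-4710157, plus strand: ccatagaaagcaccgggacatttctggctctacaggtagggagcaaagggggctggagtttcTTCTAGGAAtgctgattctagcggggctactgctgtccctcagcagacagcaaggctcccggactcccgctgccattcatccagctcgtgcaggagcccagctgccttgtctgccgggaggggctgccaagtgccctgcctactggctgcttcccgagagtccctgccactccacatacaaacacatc
Csn2, chr5:87699426-87699675, minus strand: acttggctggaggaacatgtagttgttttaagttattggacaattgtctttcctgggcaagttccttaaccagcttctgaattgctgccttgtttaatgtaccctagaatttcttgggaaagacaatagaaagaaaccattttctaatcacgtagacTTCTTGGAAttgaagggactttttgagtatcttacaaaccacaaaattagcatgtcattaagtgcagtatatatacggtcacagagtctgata
On both strands of each whole window, TTCNNNGAA was searched as the STAT motif, TGTTTAC as the forkhead motif, and AGATAA as a motif for Gata3 and its relatives. A STAT match stood in 2 of the 9 windows, with its first base at position -93 from the Csn2 start and at -188 from the downstream Esr1 start, and 8.3% of all 32851 RefSeq windows hold one. A forkhead match stood in 1 of the 9, the Foxa1 window, against 3.65% of all windows, and a match to the Gata3 motif in 0, against 11.2%. These matches describe letters and not binding sites.

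The values used are deposited log2 expression values, and a log2 difference of 1 is a doubling on that scale. The median over all probe sets of an array lay between 4.48 and 4.64. The labels were checked against markers. Of 12 epithelial markers, all 12 were higher in DA3 alone than in co-cultured MBA-15 (median log2 difference 4.34), and of 13 stromal markers 10 were lower. Over all genes 6.47% passed higher and 6.08% lower at a limma adjusted p of 0.05. The 12 include Epcam, on which the co-cultured MBA-15 fraction was separated. The arrays labelled MBA-15 alone stood apart. Their mean log2 expression of the 12 epithelial markers was 8.41 and 8.80, against 5.31 and 5.14 in co-cultured MBA-15, 9.55 and 9.48 in DA3 alone and 9.01 and 9.43 in co-cultured DA3. Their mean over the 13 stromal markers was 8.53 and 8.65, against 9.17 and 8.71 in co-cultured MBA-15. Their descriptions, and those of the DA3 alone arrays, carry the word mix and a fraction sign, neither explained in the labels. The lines were therefore compared with co-cultured MBA-15 as the stromal side. By the labels, DA3 alone differs from that side in culture as well as in line. Line, co-culture and separation cannot be told apart in that comparison. The co-culture fractions share the kind of culture, but line and separation cannot be told apart between them. Of the assay numbers in the descriptions, whose meaning is not given, only 3 holds arrays of both fractions. In co-cultured DA3 the mean over the stromal markers was 7.01 and 6.37, above the 5.79 and 5.95 of DA3 alone. In such bulk RNA, fewer cells of a type and less RNA per cell cannot be told apart.

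Esr1, which encodes oestrogen receptor alpha, had a log2 expression of 5.01 and 5.06 in co-cultured MBA-15, 4.48 and 4.62 in MBA-15 alone, 3.94 and 3.71 in DA3 alone, and 3.96 and 4.15 in co-cultured DA3. The order of the group means was co-cultured MBA-15, MBA-15 alone, co-cultured DA3, DA3 alone, and no neighbours in that order overlapped. All 4 DA3 arrays lay below all 4 arrays labelled MBA-15. Esr1 was below the array median on 5 of the 8 arrays, among them all 4 of DA3. There it stood near the mean log2 value of 19 genes of other organs, which was 3.81 and 3.77 in DA3 alone and 3.88 and 4.04 in co-cultured DA3, so no fold is given. The log2 difference of DA3 alone from co-cultured MBA-15 was -1.21 ± 0.14 (SE, n = 2 arrays a group) with a limma adjusted p of 0.00275. For co-cultured DA3 it was -0.98 ± 0.14 with a limma adjusted p of 0.00725. Within assay 3 and within assay 4, numbers that the descriptions give without their meaning, the difference between DA3 alone and co-cultured MBA-15 was -1.36 and -1.07, and within assay 3 that between the co-culture fractions was -1.10. The Esr1 level on the arrays labelled MBA-15 alone lay between those of co-cultured MBA-15 and the DA3 groups, on the same arrays that carried epithelial markers, and the part of the latter in it was not tested.

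Pgr, the progesterone receptor and a standard target of oestrogen signalling, had a log2 expression of 3.59 and 3.57 in co-cultured MBA-15, 3.57 and 3.56 in MBA-15 alone, 3.63 and 3.52 in DA3 alone, and 3.72 and 3.92 in co-cultured DA3. All 8 values were below the median of their array, and the DA3 alone arrays enclosed those of both MBA-15 groups. The log2 difference between DA3 alone and co-cultured MBA-15 was 0.00, with a 95% interval from -0.31 to 0.30. That interval leaves room for a change of either sign smaller than that measured for Esr1.

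**Figure D1:**
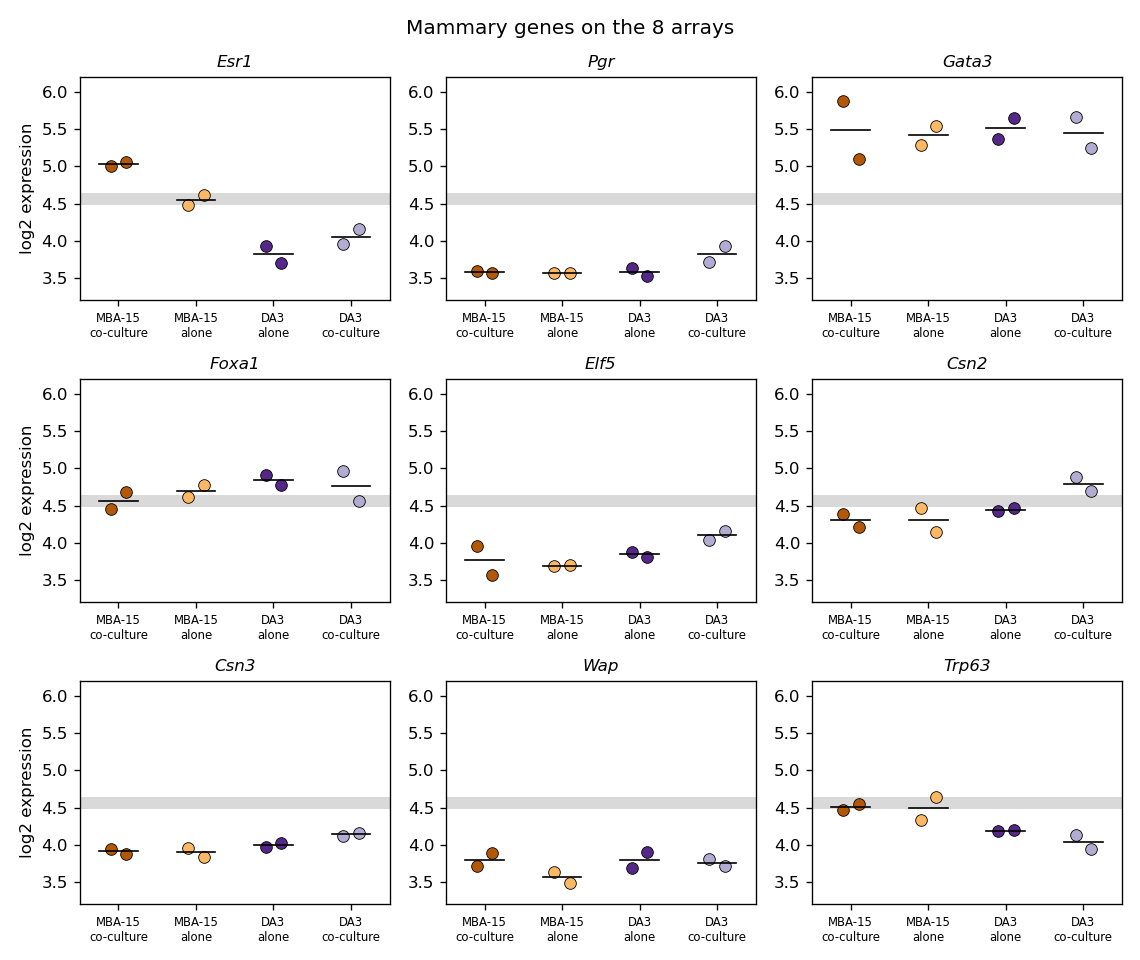
Log2 expression of the 9 measured genes on the 8 arrays, by group (points, arrays; bars, mean of 2 arrays; grey band, range of the array medians, 4.48 to 4.64). Esr1 steps down from 5.01 and 5.06 in co-cultured MBA-15 to 3.94 and 3.71 in DA3 alone, while Pgr, Elf5, Csn3 and Wap lie below the band on all 8 arrays.

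None of the luminal transcription factors passed between DA3, alone or co-cultured, and co-cultured MBA-15. Gata3, needed to form and keep luminal cells, had a log2 expression of 5.88 and 5.10 in co-cultured MBA-15, 5.30 and 5.54 in MBA-15 alone, 5.38 and 5.65 in DA3 alone, and 5.67 and 5.24 in co-cultured DA3. It was above the array median on all 8 arrays, stromal ones included, and the groups overlapped, with the widest gap inside co-cultured MBA-15. The log2 difference between DA3 alone and co-cultured MBA-15 was 0.03 ± 0.29, and it was 0.56 within assay 3 and -0.50 within assay 4. Without co-cultured MBA-15 replicate 2 it was -0.37, and without replicate 1 it was 0.42.

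Foxa1, the forkhead factor that opens chromatin for the oestrogen receptor, had a log2 expression of 4.45 and 4.68 in co-cultured MBA-15, 4.62 and 4.78 in MBA-15 alone, 4.92 and 4.78 in DA3 alone, and 4.97 and 4.56 in co-cultured DA3. Both DA3 alone arrays lay above both co-cultured MBA-15 arrays, by a log2 difference of means of 0.28 (95% interval from -0.15 to 0.71, limma adjusted p 0.438). Elf5, the alveolar factor, read 3.96 and 3.57 on the log2 scale in co-cultured MBA-15, 3.69 and 3.70 in MBA-15 alone, 3.88 and 3.82 in DA3 alone, and 4.04 and 4.16 in co-cultured DA3. It was below the array median on all 8 arrays, and DA3 alone lay inside the range of co-cultured MBA-15.

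None of the milk protein genes passed between either DA3 group and co-cultured MBA-15. Csn2, beta-casein, had a log2 expression of 4.39 and 4.22 in co-cultured MBA-15, 4.47 and 4.14 in MBA-15 alone, 4.43 and 4.47 in DA3 alone, and 4.89 and 4.70 in co-cultured DA3. Only the co-cultured DA3 arrays lay above their array median. Csn3, kappa-casein, which keeps casein micelles in solution, ranged over the 8 arrays from 3.84 to 4.16 in log2 expression, with co-cultured DA3 the highest at 4.12 and 4.16. Wap, whey acidic protein, ranged from 3.49 to 3.91, and its DA3 alone arrays, at 3.69 and 3.91, enclosed those of co-cultured MBA-15, at 3.71 and 3.89. Csn3 and Wap were below the array median on all 8 arrays.

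Trp63, the basal factor, had a log2 expression of 4.47 and 4.54 in co-cultured MBA-15, 4.34 and 4.65 in MBA-15 alone, 4.19 and 4.20 in DA3 alone, and 4.13 and 3.94 in co-cultured DA3. All DA3 arrays lay below all arrays labelled MBA-15, and 7 of the 8 values were below the array median. The log2 difference from co-cultured MBA-15 was -0.31 ± 0.15 for DA3 alone (limma adjusted p 0.268) and -0.47 ± 0.15 for co-cultured DA3 (limma adjusted p 0.0942), and neither passed.

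Between DA3 alone and co-cultured MBA-15, 1 of the 9 genes passed at an adjusted p of 0.05, lower, where 12.6% of all 19938 genes passed, 6.47% higher and 6.08% lower. The other 8 had log2 differences between -0.31 and 0.28, with 95% interval bounds from -0.67 to 0.71 and adjusted p from 0.268 to 1.00. The median of the 9 was 0.03, beside 0.00 over all genes. The arrays of the groups did not overlap for 5 of the 9, higher in DA3 for Foxa1, Csn2 and Csn3 and lower for Esr1 and Trp63, beside 53.8% of all genes. Of the genes that passed, 1290 were higher and 1213 lower in DA3 alone, and with each array centred on its median, which moved the median of all genes by 0.11, 1722 were higher and 1070 lower. Esr1 stayed on its side under that centring, at -1.10.

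Between co-cultured DA3 and co-cultured MBA-15, again only Esr1 of the 9 passed, where 12.8% of all genes did, 4.48% higher and 8.28% lower. Csn2 had a log2 difference of 0.49 ± 0.16 with a limma adjusted p of 0.096 and Elf5 a difference of 0.33 ± 0.16 with 0.226. Csn2 and Trp63, with Esr1, were the 3 of 9 with an unadjusted p under 0.05, beside 5496 of all 19938 genes. The arrays did not overlap for 6 of the 9, among them Pgr, Elf5, Csn2 and Csn3 on the higher side, beside 55.1% of all genes. Genes of other organs were above 0 for 18 of 19 here, with a median log2 difference of 0.11. Of the 9, 5 were above 0, with a median of 0.20.

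**Figure D2:**
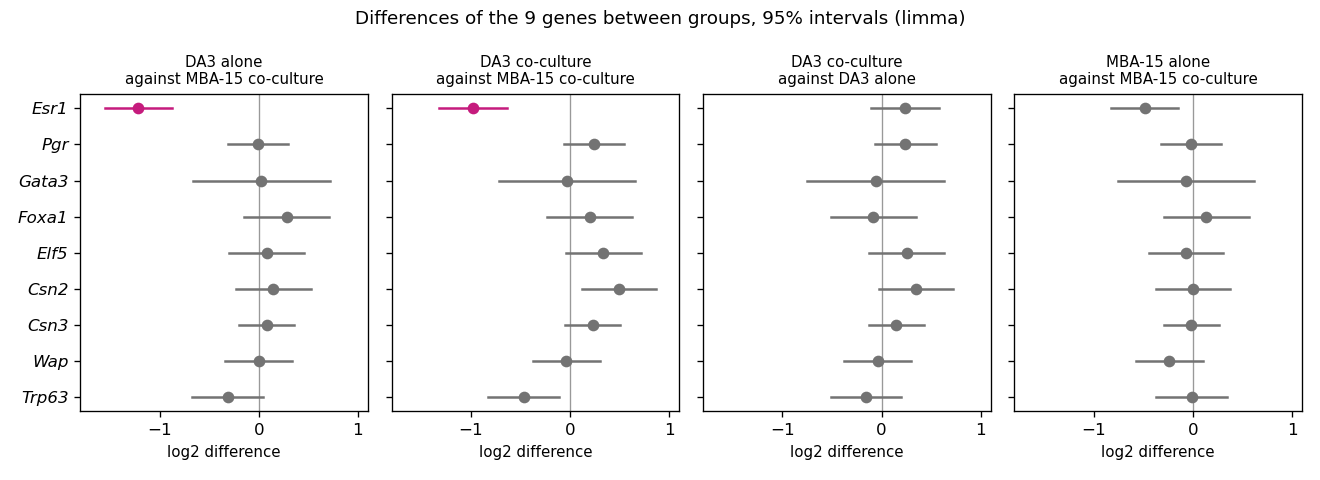
Log2 differences of the 9 genes in 4 comparisons (points, difference of group means; lines, 95% interval from limma; magenta, adjusted p under 0.05). The magenta points are those of Esr1 at -1.21 and -0.98 in the comparisons of DA3 with co-cultured MBA-15.

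The hormone-sensing luminal list holds other nuclear receptors, oestrogen targets and paracrine signals. Of its 12 measured genes, 0 were higher and 1 was lower in DA3 alone than in co-cultured MBA-15 (median log2 difference -0.12). Over all genes 6.47% passed higher and 6.08% lower. Tbx3, a T-box factor of early mammary development, was the one that passed, at 6.63 and 5.09 in co-cultured MBA-15 and 3.96 and 3.94 in DA3 alone in log2 expression, a difference of -1.91 ± 0.47 (limma adjusted p 0.0467). The arrays did not overlap, but the co-cultured MBA-15 arrays were far apart. Without co-cultured MBA-15 replicate 1 the difference was -1.14 (limma adjusted p 0.0582). The call was also lost without either DA3 alone array (adjusted p 0.198 and 0.197), either array labelled MBA-15 alone (0.0685 each) or either co-cultured DA3 array (0.0606 each). The other named genes did not pass: Fgfr2, a growth factor receptor of the epithelium, at -1.29, the glucocorticoid receptor Nr3c1 at -0.85 and Xbp1, a factor of secretory cells, at 0.54. Esr2, Greb1, Pdzk1, Calcr and Myb were below the array median on all 8 arrays.

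Of 16 receptor cofactors and other luminal transcription factors, 3 were higher and 0 lower in DA3 alone (median log2 difference 0.94). The shares over all genes were 6.47% higher and 6.08% lower. The 3 were epithelial factors. Elf3, an epithelial ETS factor, rose from a log2 expression of 3.83 and 3.74 in co-cultured MBA-15 to 7.74 and 7.49 in DA3 alone, a difference of 3.83 ± 0.22 (limma adjusted p 0.000252). Grhl2, which maintains epithelial junctions, went from 4.21 and 4.38 to 7.27 and 7.19, a difference of 2.94 ± 0.38 (limma adjusted p 0.0039). Ehf, an ETS factor related to Elf5, went from 3.50 and 3.60 to 5.39 and 5.94, a difference of 2.12 ± 0.25 (limma adjusted p 0.00279). In all of these the DA3 alone arrays lay far above those of co-cultured MBA-15. Sox9, a factor of luminal progenitors, had a difference of 1.72 and did not pass (limma adjusted p 0.102). The coactivators Ncoa1 and Ncoa3 had differences of 1.21 and 1.25 and did not pass either.

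The list for prolactin and Stat5 signalling includes receptors. In it 1 of 12 genes was higher and 1 lower in DA3 alone (median log2 difference 0.42), beside 6.47% and 6.08% of all genes. Ghr, the growth hormone receptor, had a log2 expression of 7.82 and 7.76 in co-cultured MBA-15 and 6.11 and 6.06 in DA3 alone, a difference of -1.71 ± 0.14 (limma adjusted p 0.000666). Its arrays were close together inside each group and well apart between groups. Ptpn6, a phosphatase that restrains cytokine receptors, went the other way, from 4.72 and 4.72 to 6.70 and 6.87, a difference of 2.06 ± 0.21 (limma adjusted p 0.00166). The kinase Jak2 had a difference of 1.13 and Socs2, an inhibitor induced by Stat5, of 1.00, and neither passed (limma adjusted p 0.283 and 0.0824). Socs1, Cish and Erbb4 were below the array median on all 8 arrays.

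Among 19 other milk and alveolar genes, 2 were higher and 2 lower in DA3 alone (median log2 difference -0.10), beside 6.47% and 6.08% of all genes. Of the 19, 12 were below the array median on all 8 arrays, among them the caseins Csn1s1, Csn1s2a and Csn1s2b. Ltf, lactoferrin, an iron-binding protein of milk and other secretions, rose from a log2 expression of 3.61 and 3.50 in co-cultured MBA-15 to 6.27 and 7.20 in DA3 alone, a difference of 3.18 ± 0.45 (limma adjusted p 0.00564). Xdh, an enzyme that also coats milk fat droplets, fell from 9.04 and 8.17 to 4.98 and 5.42, a difference of -3.41 ± 0.31 (limma adjusted p 0.000989). Ltf was high and Xdh low on both DA3 alone arrays, with no overlap. Btn1a1, butyrophilin of the milk fat globule, had a difference of 1.31 and Cd14, a pattern recognition receptor found on luminal progenitors, of -1.15 (limma adjusted p 0.0313 and 0.0245). Without DA3 alone replicate 1 or replicate 2 these became 1.62 and 1.00 for Btn1a1 and -1.26 and -1.05 for Cd14, and no such value passed. Btn1a1 was also lost without co-cultured MBA-15 replicate 1 or 2 (1.24 and 1.38), and Cd14 without co-cultured MBA-15 replicate 2 (-0.86).

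Of 14 general luminal epithelial markers, 12 were higher in DA3 alone and 0 lower, beside 6.47% and 6.08% of all genes. The median log2 difference was 4.20. Krt7, a keratin of simple epithelia, had a log2 expression of 4.88 and 4.88 in co-cultured MBA-15 and 10.11 and 9.78 in DA3 alone, and Epcam 5.58 and 5.19 against 9.57 and 9.46. The difference was 5.07 ± 0.16 for Krt7 and 4.13 ± 0.27 for Epcam (limma adjusted p 0.000161 and 0.00033). Epcam was the target of the separation, so its test is not independent of how co-cultured MBA-15 was obtained. Esrp1, an epithelial splicing regulator, and Krt18 followed at 4.85 and 4.63. Prom1, which marks hormone-sensing luminal cells in the mouse, had a difference of -0.01 and was below the array median on all 8 arrays, and Cd24a had a difference of 0.73 that did not pass (limma adjusted p 0.271).

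Basal and myoepithelial genes split. Of 19, 4 were higher and 3 lower in DA3 alone (median log2 difference -0.02), beside 6.47% and 6.08% of all genes. The higher ones were the cadherin Cdh3 (3.26), the laminin receptor chain Itgb4 (3.10), the desmosome-linked Perp (2.90) and the protein C receptor Procr (2.56). The lower ones were the contractile genes Acta2 (-4.14) and Tagln (-1.02) and the repressor Snai2 (-2.59). These 3 are also expressed by stromal cells. Snai2 lost its call without either DA3 alone array (limma adjusted p 0.081 and 0.0918), and Tagln without either of these or without co-cultured MBA-15 replicate 2 (adjusted p from 0.0632 to 0.126). Krt5 and Krt14, the keratins of basal cells, had differences of 0.94 and -0.03 and did not pass, and Trp73, the relative of Trp63, was below the array median on all 8 arrays. As a check on dim probe sets, of 19 genes of other organs 0 passed, their differences ran from -0.19 to 0.22, and 18 were below the array median on all 8 arrays.

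**Figure D3:**
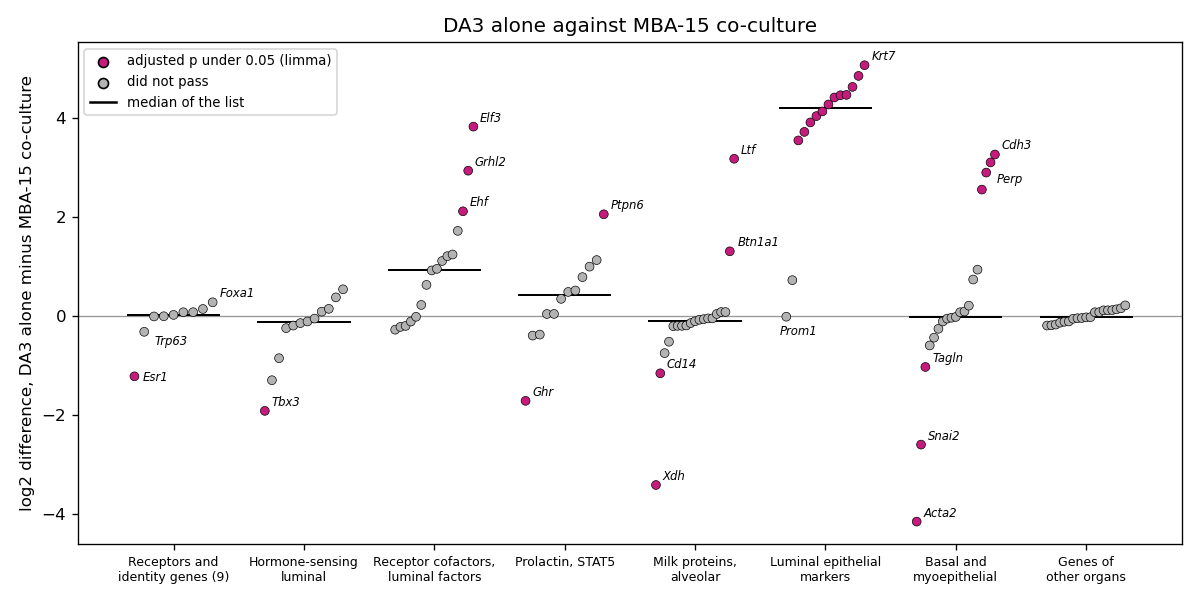
Log2 difference between DA3 alone and co-cultured MBA-15 for each gene of 8 lists (points, genes in order of their difference; magenta, limma adjusted p under 0.05; bars, median of the list). The luminal epithelial markers reach 5.07 for Krt7, while the 9 receptor and identity genes lie between -1.21 for Esr1 and 0.28 for Foxa1.

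With co-cultured DA3 in place of DA3 alone, epithelial genes again passed, where 4.48% of all genes passed higher and 8.28% lower. Epcam, among the luminal epithelial markers, was set by the separation on both sides. Elf3 (3.58) and Grhl2 (2.27) passed higher and Ehf did not (0.88, limma adjusted p 0.0685). Ptpn6 was higher (1.57), and Ghr (-0.88, not past the threshold with only the 2 groups fitted or with trended robust eBayes) and Stat5a (-0.76), the transcription factor of prolactin signalling, were lower. Stat5a lost its call without co-cultured MBA-15 replicate 1 or co-cultured DA3 replicate 2 (limma adjusted p 0.077 and 0.0728). Of the milk and alveolar genes only Xdh passed (-3.35), and Ltf did not (1.01, limma adjusted p 0.205). Of the hormone-sensing genes Nr3c1 (-1.52) and Fgfr2 (-1.41) were lower and Tbx3 did not pass (-1.42, limma adjusted p 0.107). The call of Nr3c1 was lost without any of 5 of the arrays and that of Fgfr2 without any of 7, and Fgfr2 was at -0.88 without co-cultured MBA-15 replicate 1. The luminal epithelial markers again had 12 of 14 higher (median log2 difference 3.85), the basal genes 4 higher and 3 lower of 19, and the stromal markers 9 lower of 13. Of the lower basal genes, Egfr, the epidermal growth factor receptor (-0.96), passed in 7 of 17 alternatives and Snai2 (-2.28) in 11. Egfr was at -0.71 without co-cultured MBA-15 replicate 2 (limma adjusted p 0.186). Snai2 lost its call without either DA3 alone array (0.053 each) or either co-cultured DA3 array (0.0633 and 0.0784). Of the stromal markers, Fn1, fibronectin (-2.79), passed in 5 of 17 alternatives, and it was at -1.88 without co-cultured DA3 replicate 2 (limma adjusted p 0.122).

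**Figure D4:**
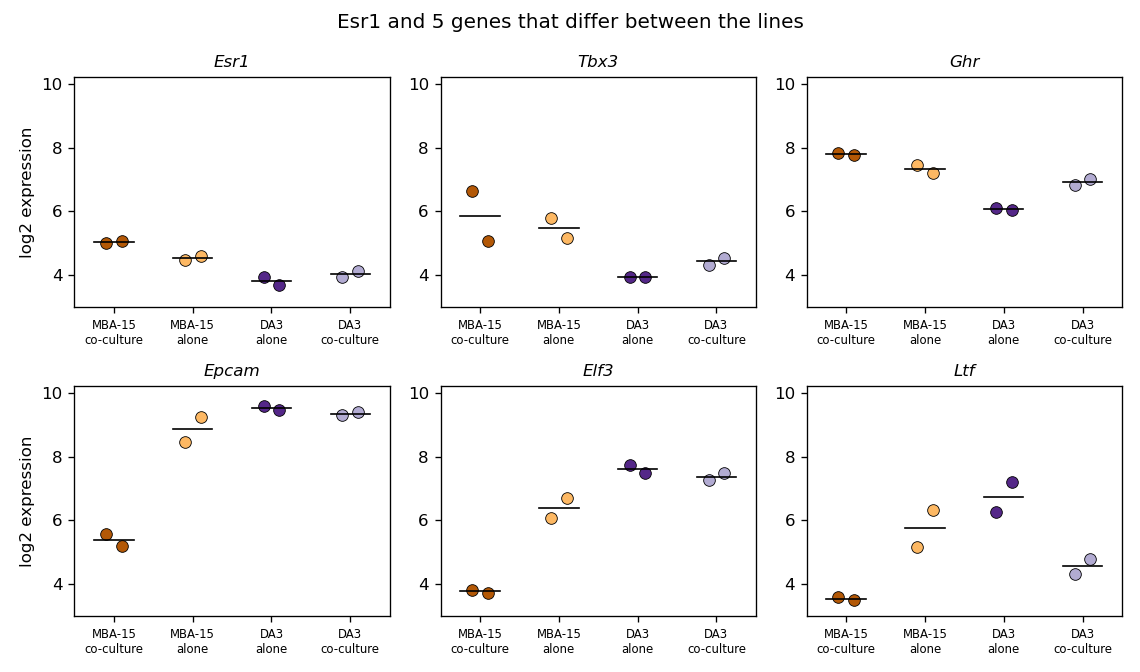
Log2 expression of Esr1 and of 5 list genes chosen after their values were seen, by group (points, arrays; bars, mean of 2 arrays). Epcam and Elf3 are high in both DA3 groups and in MBA-15 alone, while Esr1, Tbx3 and Ghr are lowest in DA3 alone.

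None of the 9 genes had a called change between the DA3 groups, which by the labels differ in separation as well as in co-culture. Separation and co-culture cannot be told apart in this comparison. Between co-cultured DA3 and DA3 alone 0 of the 9 passed in limma, where 0.0401% of all genes did, and 0 of the 9 against 2973 of all 19938 genes had an unadjusted p under 0.05. The differences ran from -0.16 to 0.35 in log2 units, with 95% interval bounds from -0.75 to 0.72 and adjusted p from 0.364 to 0.924. The largest were Csn2 at 0.35 ± 0.16, Elf5 at 0.25 ± 0.16, Pgr at 0.24 ± 0.13 and Esr1 at 0.24 ± 0.14. For 6 of the 9 the arrays did not overlap, higher in co-culture for Esr1, Pgr, Elf5, Csn2 and Csn3 and lower for Trp63, beside 53.8% of all genes. Genes of other organs, which these lines should not express, were above 0 for 18 of 19 on these arrays with a median of 0.17, and the median of the 9 was 0.15. After quantile normalization the medians were 0.02 for the genes of other organs and 0.04 for the 9. With arrays centred on their median, which moved the median of all genes by -0.12, they were 0.05 and 0.03.

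No gene of the 6 mammary lists passed in this comparison either. Jak2, the kinase bound to the prolactin receptor, had a log2 expression of 8.65 and 9.22 in DA3 alone and 6.95 and 6.06 in co-cultured DA3, a difference of -2.43 ± 0.55 (limma adjusted p 0.186). Ltf read 6.27 and 7.20 against 4.33 and 4.80, a difference of -2.17 ± 0.45 (limma adjusted p 0.17). For Ehf the values were 5.39 and 5.94 against 4.30 and 4.56, a difference of -1.23 ± 0.25 (limma adjusted p 0.166). The arrays of these 3 genes did not overlap, and no difference passed. Btn1a1 (-1.10), Ncoa1 (-1.25), Ghr (0.83) and Acta2 (1.56) did not pass either. The stromal markers were above 0 for 11 of 13, with a median of 0.68, and 0 passed, and their part in the co-culture values was not tested.

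**Figure D5:**
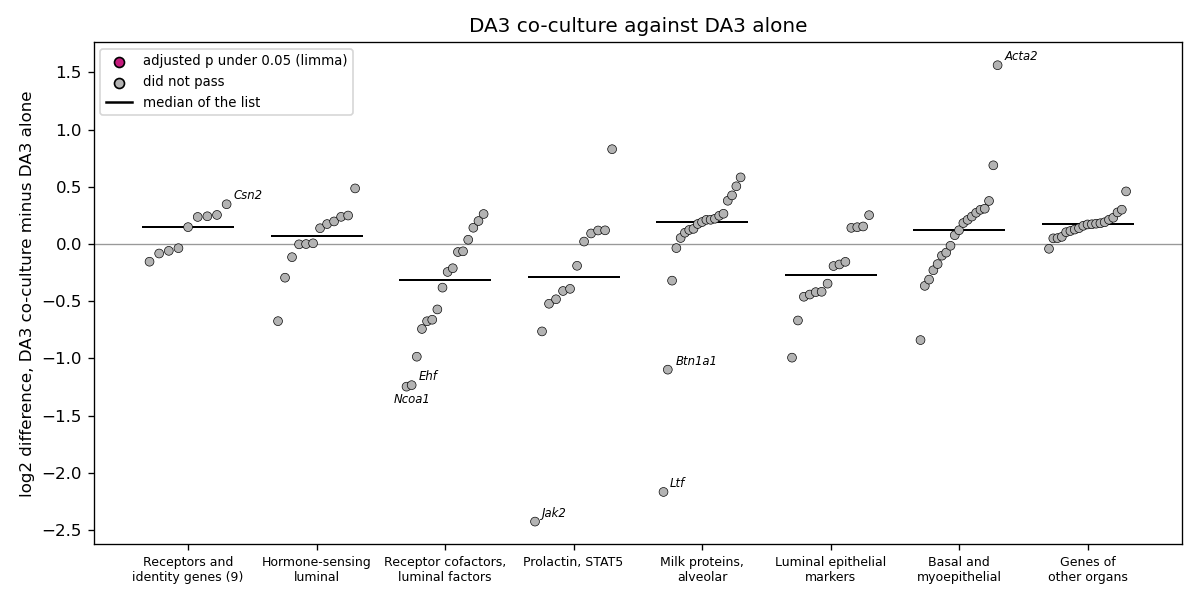
Log2 difference between co-cultured DA3 and DA3 alone for each gene of 8 lists (points, genes in order of their difference; bars, median of the list). No point passed the limma test, and Jak2 and Ltf are lowest at -2.43 and -2.17. Above 0 lie 18 of the 19 genes of other organs and 5 of the 9 receptor and identity genes.

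In the stromal line, MBA-15 alone was compared with co-cultured MBA-15. None of the 9 passed in limma, where 0.848% of all genes did, 0.772% on the higher side. Esr1 had a log2 difference of -0.49 ± 0.14, the only 1 of the 9 with an unadjusted p under 0.05 (p from limma 0.0121, adjusted 0.275), beside 1954 of all genes. Wap had a difference of -0.24 ± 0.14, Foxa1 of 0.13 ± 0.18 and Elf5 of -0.07 ± 0.16. The arrays did not overlap for Esr1 and Wap, 2 of the 9, beside 38.4% of all genes. On the same arrays 12 of 14 luminal epithelial markers passed higher in MBA-15 alone, and 4 of these 12 passed without co-cultured MBA-15 replicate 2. Epcam, 1 of the 12, stood at 8.45 and 9.25 against 5.58 and 5.19, with a difference of 3.46 ± 0.27 (limma adjusted p 0.00713, and 0.0693 at 3.27 without co-cultured MBA-15 replicate 2). Elf3 passed higher too, at 2.60 (limma adjusted p 0.00735, and 0.0735 without co-cultured MBA-15 replicate 2). With only the 2 groups fitted, Epcam, Muc1, Cdh1, Cldn4, Esrp1 and Elf3 lost the call (limma adjusted p from 0.0602 to 0.0953). The Epcam level of co-cultured MBA-15 was set by the separation. The part of the epithelial RNA of MBA-15 alone in the Esr1 value was not tested.

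Whether co-culture changed a gene differently in the 2 lines was tested as a difference of differences. None of the 9 passed in limma, where 0.0602% of all genes did, and 0 of the 9 against 1260 of all genes had an unadjusted p under 0.05. The 9 values ran from -0.27 to 0.35 with adjusted p of at least 0.956, and the test used the arrays labelled MBA-15 alone.

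Esr1 was the only one of the 9 whose group means spanned over 1 log2 unit (1.21), the others spanning 0.10 to 0.49. The genes whose levels over the 8 arrays were most like it were Olfm1 (Pearson r 0.997), Mapre2 (0.9948) and A530040E14Rik (0.991), a description over 8 arrays in 4 groups of 2. Olfm1, a secreted glycoprotein, had a log2 expression of 5.19 and 5.31 in co-cultured MBA-15, 4.71 and 4.91 in MBA-15 alone, 4.17 and 4.05 in DA3 alone, and 4.26 and 4.42 in co-cultured DA3. Mapre2, a microtubule end-binding protein, went in the same order from 7.26 and 7.28 through 6.75 and 6.70 to 6.01 and 5.73 in DA3 alone and 6.02 and 6.30 in co-cultured DA3.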

How the data were processed

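Affymetrix MoGene 1.0 ST arrays measured RNA from MBA-15 and DA3, 2 arrays in each of 4 groups. Each probe set has a deposited log2 value that the authors made with RMA and Partek 6.5 per the submitters' processing notes, whose parameters are not given in the sources used here. The log2 scale was read from RMA and the range of values. RMA normalises between arrays, so a difference is relative to the other genes.

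Of 35556 probe sets, 21789 had 1 gene symbol, 1621 several, and 12146 were not listed in the platform annotation. Of several probe sets of a gene, the one with the highest mean stood for it, giving 19938 genes, unfiltered. Comparisons were contrasts between 4 group means, fitted over all 8 arrays in limma 3.58.1 (R 4.3.3, lmFit and eBayes), two-sided, with Benjamini-Hochberg adjustment over all genes, a threshold of 0.05, and 4 residual and 2.6 prior degrees of freedom. Their number of 2 a group limits precision. No 2 arrays shared more than 2 identical values.

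The genes and lists were chosen with earlier results of these data known. Named are all measured genes, up to 4 genes of a list with the largest absolute difference, Epcam, and the 3 genes most like any gene spanning over 1 log2 unit; others that passed or that explain a result were named after their values were seen. Alternatives were mean over probe sets, a filter on dim genes, quantile normalization, centring, fits of 2 groups, replicate and assay blocks, trended robust eBayes and leaving out arrays. Some listed genes are not reported here, and list counts are over the measured genes.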

Additional observations from a re-analysis of the deposited data

Results flagged for a closer look

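Each gene here passed the test of the difference of differences in limma, which used the arrays labelled MBA-15 alone. The value was 3.85 for Krt7, 3.86 for Krt18, 3.45 for Cldn7 and 2.44 for Procr in log2 units (adjusted p 0.0183, 0.0315, 0.0315 and 0.0393). All come from the lists of luminal epithelial markers or of basal and myoepithelial genes, and none is among the 9 measured receptor and identity genes. On the arrays labelled MBA-15 alone Krt7 had a log2 expression of 9.08 and 9.23, against 4.88 and 4.88 in co-cultured MBA-15. Krt18 had 9.51 and 9.61 against 5.79 and 5.91, Cldn7 7.71 and 8.13 against 4.69 and 4.52, and Procr 6.72 and 6.63 against 4.93 and 4.91. Between co-cultured DA3 and DA3 alone the differences were -0.42, 0.15, 0.14 and 0.69, and none passed. A change with co-culture and the epithelial RNA on the arrays labelled MBA-15 alone cannot be told apart in this test. Each of the 4 calls was lost under the replicate block (adjusted p from 0.0605 to 0.109), under the assay block (0.16 each) and without either co-cultured MBA-15 array (adjusted p from 0.142 to 0.21) or either DA3 alone array (0.0957 to 0.369).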

How the results depend on the processing

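Esr1 stayed lower and past the threshold in each of 17 alternatives of both comparisons of DA3 with co-cultured MBA-15, with adjusted p from 0.000119 to 0.0314 for DA3 alone and from 0.000852 to 0.0475 for co-cultured DA3, and no other of the 9 genes passed in any comparison under any alternative run. Some of the 17 could not move the Esr1 difference. Esr1 has 1 probe set, so the mean over probe sets kept its values. Leaving out arrays of groups outside the comparison moved only the estimate of spread. Between DA3 alone and co-cultured MBA-15, Pgr turned to 0.03 and Wap to 0.05 under quantile normalization, and each to 0.11 with arrays centred. Elf5 turned to 0.01 under quantile normalization between the MBA-15 groups. With arrays left out in turn, the first comparison ran from -0.06 to 0.05 for Pgr, from -0.11 to 0.11 for Wap, from -0.37 to 0.42 for Gata3 and from -0.11 to 0.28 for Elf5, and Elf5 from -0.26 to 0.13 between the MBA-15 groups. Counts over all genes moved more. Between the co-culture fractions 2545 became 1123 with only the 2 groups fitted. Between co-cultured DA3 and DA3 alone 8 became 44 with the filter on dim genes (11876 genes and 5 of the 9 kept), 0 with the 2 groups, 3 under the replicate block, 0 under the assay block, 134 with trended robust eBayes and 2 without both arrays labelled MBA-15 alone, an alternative added after seeing the data. Between the MBA-15 groups 169 became 28 with the 2 groups and 334 with trended robust eBayes. For the difference of differences 12 became 29 with the dim filter, 29 under quantile normalization, 0 under either block and 44 with trended robust eBayes. With arrays left out the counts ran from 995 to 2870, from 1642 to 2229, from 0 to 3, from 13 to 198 and from 0 to 8 in the order of the report. Of the list genes called between co-cultured DA3 and co-cultured MBA-15, 6 lost the call under the assay block (adjusted p 0.122 for Stat5a, 0.0852 for Nr3c1, 0.118 for Fgfr2, 0.0611 for Egfr, 0.157 for Fn1 and 0.0552 for Snai2). Under the replicate block 4 lost it (Nr3c1 0.0512, Fgfr2 0.0507, Egfr 0.0505 and Fn1 0.0608). With the 2 groups fitted these 6 and Ghr lost it (adjusted p from 0.0571 for Ghr to 0.141 for Fgfr2), with trended robust eBayes Ghr (0.0595), under quantile normalization Egfr (0.0634) and Fn1 (0.069), and with arrays centred Egfr (0.051). Between DA3 alone and co-cultured MBA-15, Cd14 lost it under the assay block (0.0512) and Tbx3 under quantile normalization (0.0539) and with the 2 groups fitted (0.0949). Between the MBA-15 groups, the 2-group fit lost Epcam, Muc1 and Elf3 (limma adjusted p 0.0602 each), Cldn4 (0.0664), Cdh1 (0.0716) and Esrp1 (0.0953). There the replicate block lost Krt19 (0.0587). Causes were not tested. Replicate numbers were not taken as pairing arrays, since deviations of arrays with the same replicate number correlated between -0.413 and 0.311. Arrays of 1 replicate number do not all share an assay number, so that check does not bear on pairing by assay. The replicate block changed no call of the 9.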

Other observations

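Other cell types were looked for with marker lists. Of 7 leukocyte markers, 0 passed in any of the 5 comparisons, and 6, among them Ptprc, Cd3e and Csf1r, were below the array median on all 8 arrays. Cd68, a lysosomal protein of macrophages that other cells also make, was the exception, at 5.95 and 4.62 in log2 expression in co-cultured MBA-15 and 6.65 and 5.90 in DA3 alone, a difference of 0.99 that did not pass (limma adjusted p 0.279). Of 7 adipocyte markers, 0 were higher and 2 lower in DA3 alone than in co-cultured MBA-15, beside 6.47% and 6.08% of all genes. Pparg, the regulator of fat cell formation, read 5.86 and 6.09 against 4.21 and 4.04, a difference of -1.85 ± 0.21 (limma adjusted p 0.0026). Cebpa had a difference of -0.98 ± 0.15 (limma adjusted p 0.00808, and 0.0771 without DA3 alone replicate 1). The fat cell products Adipoq, Plin1, Cidec and Lep were below the array median on all 8 arrays.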
